A study of Mus musculus with 18 samples.

Results

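RAD21, the kleisin subunit that closes the cohesin ring, was mapped by chromatin immunoprecipitation and sequencing in purified splenic B cells of C57BL/6 mice (substrain C57BL/6J in the methods), either resting or stimulated for 48 h or 96 h with the bacterial lipopolysaccharide LPS at 50 µg/ml and the cytokine IL-4 at 2 ng/ml. Each of the 3 time points had 3 replicates, and each replicate held B cells pooled from 12 mice. At 96 h the cells had also been enriched for surface IgG1, so that time in culture and this enrichment cannot be told apart. The sites described here had a RAD21 peak in the pooled list of the 96 h-stimulated B cells and in neither the resting nor the 48 h pooled list, and they overlapped a peak of at least 2 of the 3 replicates at 96 h by 1 bp or more. A pooled list is the set of peaks called on the merged reads of a time point, and a site is the union of pooled peaks that share at least 1 bp. Of 15705 sites, 6990 were unique to the 96 h list and 1201 of these met the rule on replicates, which is 7.65% of all sites. The presence of a peak in the pooled and the 96 h replicate lists chose these sites, so their peaks and scores at 96 h are given as a description without a test. The same holds for shares compared between classes of sites, whose 95% intervals are exact binomial intervals that cover counting error only.

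Cohesin holds sister chromatids together after replication and forms chromatin loops in interphase. It moves along DNA by loop extrusion and accumulates where the zinc finger protein CTCF is bound, mostly when the CTCF motif points towards the incoming cohesin, so that loops often form between motifs that face each other. In B cells, loops of this kind connect promoters with distant enhancers and bring parts of the immunoglobulin loci together. LPS and IL-4 drive resting B cells to divide, to switch to IgG1 and in part to become antibody-secreting plasmablasts.

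The sequences under the strongest sites are shown first, because nearly all described sites held a CTCF-like sequence. A 20-base motif was learned from 524 training sites, each present in 6 or more of the 9 replicate lists and none of them among the described sites, and it read NNCCACNAGGGGGCGCNNNN, where N is a position without a dominant base. This word has the form of the known CTCF motif, although CTCF itself was not measured in these lists. Below are 60 bases around the best match, 5′ to 3′ on the strand of the motif, in mm9, at 7 of the 8 sites that ranked highest in the 3 replicates at 96 h and at the site nearest to Foxo1. Capitals mark a match to the motif, and a sequence without capitals held no match at the level used.
Rtdr1, intron, chr10:74484046-74484105, minus strand: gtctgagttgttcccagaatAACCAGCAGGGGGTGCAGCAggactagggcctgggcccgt
Mab21l3, intergenic, chr3:101616689-101616748, minus strand: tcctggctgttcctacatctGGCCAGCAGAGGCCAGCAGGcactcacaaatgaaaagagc
Lep, intergenic, chr6:28974324-28974383, minus strand: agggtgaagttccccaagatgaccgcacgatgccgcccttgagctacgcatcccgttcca
Blcap, intergenic, chr2:157430925-157430984, plus strand: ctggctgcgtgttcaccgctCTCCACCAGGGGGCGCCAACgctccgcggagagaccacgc
Gpr31c, intergenic, chr17:13236848-13236907, plus strand: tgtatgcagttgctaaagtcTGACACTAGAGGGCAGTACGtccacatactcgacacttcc
Lonrf2, intergenic, chr1:38844457-38844516, minus strand: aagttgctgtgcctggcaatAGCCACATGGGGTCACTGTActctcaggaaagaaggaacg
Nol10, intron, chr12:17373941-17374000, plus strand: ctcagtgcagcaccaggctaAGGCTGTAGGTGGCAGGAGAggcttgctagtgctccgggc
Foxo1, intergenic, chr3:52000417-52000476, minus strand: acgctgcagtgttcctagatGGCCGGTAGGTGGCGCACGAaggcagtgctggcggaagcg

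The support by replicates at 96 h was uneven. The replicate lists held 2807, 4552 and 8579 peaks in replicates 1, 2 and 3, and 499, 998 and 1165 of the 1201 sites had a peak in them, which is 41.5%, 83.1% and 97.0%. Replicates 2 and 3 alone supported 702 sites, all 3 replicates supported 260, replicates 1 and 3 supported 203, and replicates 1 and 2 supported 36. Replicate 3, with the longest list, thus took part in nearly every site, and replicate 1, with the shortest, in the fewest. Where a site had a peak, its median score within the list was 9.17 in replicate 1, 10.63 in replicate 2 and 12.52 in replicate 3, at percentiles 38.8, 38.1 and 50.9 of the list. The described sites were therefore of middle or lower rank within the single replicates. The scores of the same site in different replicates were weakly related, with a Spearman's rho of 0.22 over 296 sites for replicates 1 and 2, 0.19 over 463 for replicates 1 and 3, and 0.24 over 962 for replicates 2 and 3. The points of these correlations share their libraries, and the pooled list holds the same reads as the replicates. Only described sites with a peak called in both replicates entered, which narrows the range of scores. These values are therefore no measure of how well the replicates agreed as a whole.

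**Figure D1:**
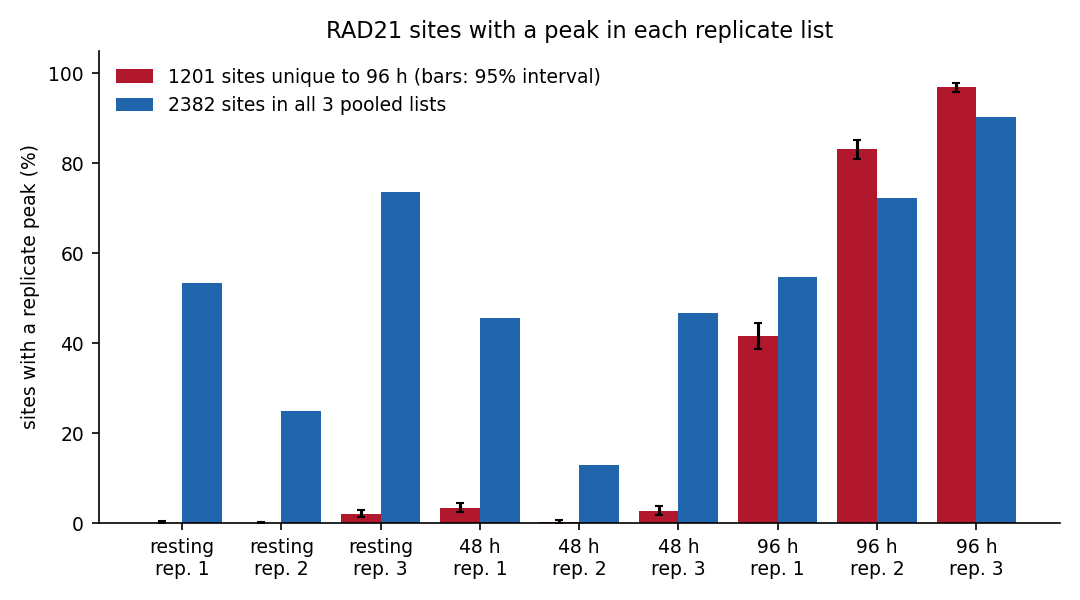
Share of sites (%) with a peak in each of the 9 replicate lists, for the 1201 sites unique to 96 h (red, error bars are exact 95% binomial intervals) and for the 2382 sites in all 3 pooled lists (blue). The red bars stay at or below 3.33% in the 6 earlier replicates and reach 41.5%, 83.1% and 97.0% at 96 h, while the blue bars are at 12.9% or more in every replicate. Both sets of sites were chosen by pooled lists that hold the reads of these replicates.

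Few of the sites had a peak in the earlier replicates, which largely follows from the choice of the sites, because the resting and 48 h pooled lists, in which they have no peak, were called on the merged reads of these 6 replicates. In the resting B cells 1, 0 and 24 of the 1201 sites overlapped a peak of replicates 1, 2 and 3, whose lists held 2097, 821 and 3578 peaks, and in the 48 h-stimulated B cells 40, 2 and 33 did so, with lists of 1538, 5254 and 1563 peaks. Taken over any replicate, this was 25 sites in resting cells, or 2.08% with an interval of 1.35% to 3.06%, and 74 sites at 48 h, or 6.16%. Of the 1201 sites, 1103, or 91.8%, had no peak in any of the 6, 96 had a peak in 1 of them and 2 in 2 of them. For comparison, the 2382 sites in all 3 pooled lists had a peak in 25% to 73.5% of cases in the resting replicates and in 12.9% to 46.8% at 48 h. The choice of this class favours such peaks in turn, because its pooled peaks were called on the same reads. Replicate 2 at 48 h stood apart, since it had the longest list of its time point and the smallest share of these shared sites. Without it, 72 sites had a peak at 48 h, an alternative chosen after seeing the data, but its reads are part of the 48 h pooled list that the rule used and could not be taken out of it. The absence from a list of an earlier time point means only that no peak was called there, and these lists were shorter, with 5690 pooled peaks in resting cells and 5579 at 48 h against 12806 at 96 h. With all 3 pooled lists cut to the length of the shortest, the rule gave 1013 sites, of which 1001 overlapped a described site.

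Scores in the 96 h pooled list rose with the number of supporting replicates. The score is that of the authors' peak caller, and its statistic is not named in the methods. It serves to rank peaks within a list, since scores of different lists need not share a scale. The median was 9.64 for the 2920 sites unique to 96 h without a replicate peak, 13.59 for the 2869 with a peak in 1 replicate, 22.46 for the 941 with 2 and 35.04 for the 260 with 3. The classes with 1 and with 2 replicates lie just outside and just inside the rule. Over the 1201 sites the median was 24.52, with quartiles of 19.61 and 31.06 and a range of 5.93 to 79.12, which placed the median site at percentile 72.1 of the 96 h pooled list. The 2382 sites in all 3 pooled lists had a median score of 33.54 in the same list. Site width followed the same order, with a median of 246 bp for the described sites, 182 bp for the 5789 sites unique to 96 h with fewer replicates and 277 bp for the sites in all 3 lists. Because a site is the union of its pooled peaks, sites in more than 1 list can be wider for that reason alone. Pooled scores of sites with and without a peak in an earlier replicate were in the same range, with a median of 27.72 for the 96 sites with 1 such peak and 24.23 for those without, while the median of the 2 sites with 2 such peaks was 23.83.

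**Figure D2:**
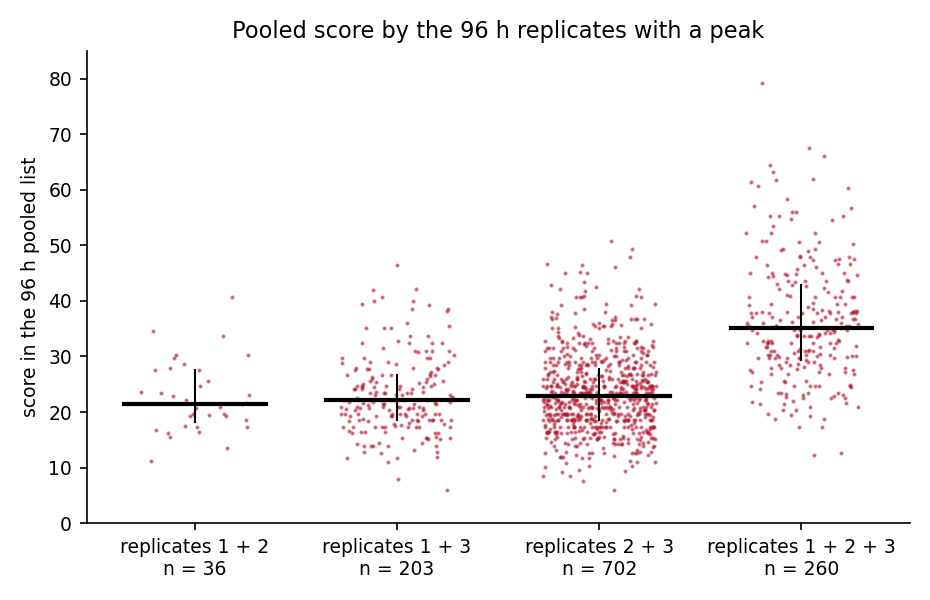
Score of each described site in the 96 h pooled list (no unit), grouped by the replicates at 96 h in which it had a peak. Each point is a site, the horizontal line is the median and the vertical line spans the quartiles. The medians are 21.49, 22.11 and 22.95 with 2 replicates and 35.04 with all 3.

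The 8 sites with the highest median percentile in the replicates at 96 h had nearest genes that are in none of the 13 gene lists described further on. Only 21 of the 1058 genes nearest to a described site within 100 kb are in these lists, so their absence among 8 sites says little. The highest was in intron 4 of Rtdr1 (chr10:74483926-74484195), with scores of 8, 28.46 and 31.24 in replicates 1, 2 and 3 at 96 h and 63.24 in the pooled list. It was also 1 of the sites with an earlier peak, with a score of 8 in replicate 1 at 48 h. This is the same number as in replicate 1 at 96 h, so a peak had been called there before 96 h. The site with the highest pooled score of all, 79.12, lay 35891 bp upstream of Lep, which encodes the fat cell hormone leptin (chr6:28974182-28974475), and had scores of 19.27, 21.89 and 40.04. The site nearest to Mab21l3 (chr3:101616569-101616816) had scores of 19.3, 26.89 and 22.83, and the site 33939 bp upstream of Blcap (chr2:157430760-157431137) had 23.38, 24.21 and 20.84. Their 3 values were close in number, although scores of different replicates need not share a scale. At the site near Gpr31c, a G protein-coupled receptor gene (chr17:13236740-13237049), the score in replicate 1 was the lowest, with 6.68 against 23.86 and 27.99.

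The remaining 3 of these 8 sites had a score over 14 in each replicate. In intron 9 of Nol10, which encodes a nucleolar protein, the site at chr12:17373826-17374111 had scores of 14.89, 22.16 and 29.61. The site nearest to Lonrf2 (chr1:38844324-38844622) had 16.57, 23.66 and 26.03. The site in the 3′UTR of H6pd, the hexose-6-phosphate dehydrogenase of the endoplasmic reticulum (chr4:149354119-149354374), had 17.5, 23.82 and 14.04, and a peak with a score of 8.38 in replicate 3 at 48 h. The sites at Lep and H6pd were the only 2 of the 8 without a motif match, with best scores of 7.25 and 5.62 log2 odds. The distance to the nearest resting pooled peak ranged from 17382 bp at Lonrf2 to 832877 bp at Gpr31c.

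Over all described sites, the median distance to the nearest pooled peak was 108338 bp for the resting list and 116903 bp for the 48 h list. These distances were not set against those of random positions. Only 3 of the 1201 sites lay within 500 bp of a pooled resting peak and 2 within 500 bp of a pooled 48 h peak. Within 1000 bp the numbers were 12 and 9. The rule itself excluded overlap with these pooled lists. In the replicate lists, a resting peak lay within 500 bp of 2.25% of the sites, and a 48 h peak within 500 bp of 6.41%. The nearest other site of any list was a median of 29810 bp away, and for 626 sites, or 52.1%, this neighbour was itself unique to 96 h, where 44.5% of all sites were unique to 96 h. The described sites lay a median of 388768 bp from the nearest other described site, and 55 were within 20 kb of another. Their share of all sites ranged from 2.94% on chromosome Y, where there was 1, and 4.66% on X to 9.07% on chromosome 2 and 9.09% on chromosome 7, beside 7.65% over the genome.

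The motif was found at 1140 of the 1201 sites within 100 bp of the centre, which is 94.9% with an interval of 93.5% to 96.1%. The motif was searched on both strands, and 9.73 log2 odds, which 5% of windows 1000 bp away from sites reach, was the minimum for a match. On the 11 chromosomes not used to learn the motif the share was 94.8%. It was 92.3% for the 5789 sites unique to 96 h with fewer replicates, 88.4% for the 2382 sites in all 3 pooled lists and 77.4% for all sites, with intervals of 91.6% to 93.0%, 87.1% to 89.7% and 76.7% to 78.0%. For the 2533 sites in the resting and 96 h lists only, which were the closest class in median width and score, it was 93.2% with an interval of 92.2% to 94.2%, which overlapped that of the described sites, so a high share was not particular to them. Among the sites unique to 96 h the share was 90.8% without a replicate peak, 93.8% with a peak in 1 replicate, 94.9% with 2 and 95% with 3. At a stricter level of 16.87 log2 odds, passed by 1% of windows, 60.5% of the described sites and 58.4% of the sites in all 3 lists had a match, with overlapping intervals. The level of the match was much the same in the classes, with a median of 18.18 log2 odds at the described sites, 18.02 at the sites with fewer replicates and 18.27 at the sites in all 3 lists. Spearman's rho between the pooled score and the motif score was -0.02 over the 1140 described sites with a match, which share their base composition and libraries. Sites outside the rule or below the level for a match did not enter, so a relation over the full range was not examined. The match lay a median of 18 bp from the centre.

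Tandem repeats, here runs of 20 or more bases built from a unit no longer than 4 bases, were present at 17 described sites, or 1.42% with an interval of 0.827% to 2.26%. They were present at 3.37% of the sites unique to 96 h with fewer replicates, at 6.88% of the sites in all 3 lists, at 13.1% of all sites and at 6.79% of windows 1000 bp away from the described sites. At the sites in the resting and 96 h lists only the share was 2.45%, with an interval of 1.88% to 3.13% that overlapped that of the described sites. The exact 20 bases of the match occurred once in the genome at 87.2% of the described sites with a match, and at 10 or more places at 41 of these 1140 sites. The share of such matches was 8.29% for the sites with fewer replicates, 3.32% for the sites in all 3 lists and 5.55% for the sites in the resting and 96 h lists only. The sequence within 100 bp of the centre had a median GC content of 50.7%, beside 47.3% in windows 1000 bp away, 48.8% at the sites with fewer replicates and 49.3% at the sites in all 3 lists. A CG pair, the target of DNA methylation, was present within the match at 46.1% of the described sites with a match, 40.7% of those with fewer replicates and 45.6% of those in all 3 lists. Most of these pairs were at position 14 of the motif, counted from 1 at its 5′ end, where 34.8%, 29.6% and 34.4% had one. DNA methylation was not measured here.

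The direction of the match was then set against that of the nearest other site with a match. Matches are called convergent here where they point towards each other, divergent where they point away from each other, and of the same direction otherwise. Of 1139 described sites, 146 or 12.8% were convergent with their neighbour, 435 or 38.2% divergent and 558 or 49.0% of the same direction, over a median distance of 36489 bp. Convergent pairs made up 16.8% for the sites unique to 96 h with fewer replicates and 16.6% for the sites in all 3 pooled lists, and the interval of the described sites, 10.9% to 14.9%, lay below both of theirs, which began at 15.9% and 15.1%. At the stricter level for a match this separation was lost, with 16.8% (14.2% to 19.7%) for the described sites, 18.9% (17.5% to 20.2%) for those with fewer replicates and 20.8% (18.7% to 23.0%) for those in all 3 lists. When the neighbour had to be a site in all 3 pooled lists, at a median distance of 284039 bp, the convergent share of the described sites was 21.8% and the divergent share 32.8%. With the same kind of neighbour it was 21.9% and 31.0% for the sites with fewer replicates, and 28.4% and 27.6% for the sites in all 3 lists. Neighbouring described sites can share a pair, and loops were not measured.

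**Figure D3:**
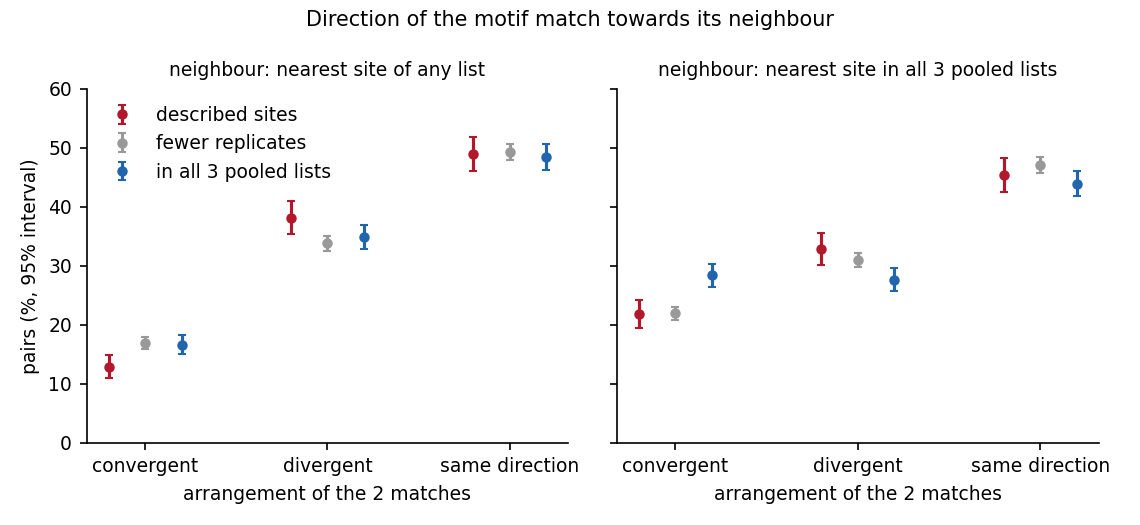
Share of pairs (%) in which the match of a site and that of its nearest neighbour are convergent, divergent or of the same direction, for the described sites (red), the sites unique to 96 h with fewer replicates (grey) and the sites in all 3 pooled lists (blue), with exact 95% binomial intervals. The left panel takes the nearest site of any list and the right panel the nearest site in all 3 lists. The red convergent point is the lowest on the left, at 12.8%, and close to the grey point on the right, at 21.8%.

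At genes, the described sites were compared with the same classes. A site was assigned by its centre to every feature of protein-coding transcripts that it fell in, so that the shares overlap. Centres within 3 kb upstream of a transcription start made up 9.16%, with an interval of 7.59% to 10.9%, where 3.43% of sequenced base pairs are in such regions. This share was 8.46% for the sites unique to 96 h with fewer replicates and 10.2% for the sites in all 3 lists, and it was higher, at 14.7% with an interval of 13.4% to 16.2%, for the sites in the resting and 96 h lists only. Centres within 1 kb upstream made up 4.41%, or 53 sites, beside 7.82% for the sites in the resting and 96 h lists only. Introns held 37.3% of the described sites and 35.7% of the base pairs, and 46.0% of the sites lay more than 3 kb from any gene, beside 57.7% of the base pairs. There were 18 sites in coding exons, 25 in 3′UTRs and 6 in 5′UTRs. These were 1.5%, 2.08% and 0.5% of the sites, beside 1.39%, 1.05% and 0.264% of the base pairs. The coding exon share was 1.5%, beside 2.37% for the sites with fewer replicates and 0.756% for the sites in all 3 lists. The 3 kb downstream of gene ends held 139 sites, or 11.6% with an interval of 9.82% to 13.5%, against 9.57% of the sites with fewer replicates, 8.14% of those in all 3 lists and 3.58% of base pairs. This interval lay above that of the sites in all 3 lists, which ended at 9.32%, and overlapped those of the sites with fewer replicates and of the sites in the resting and 96 h lists only, where the share was 11.3%. The median distance to the nearest protein-coding start was 18684 bp, with quartiles of 7465 and 42792 bp, beside 20032 bp for the sites with fewer replicates, 18792 bp for those in all 3 lists and 13597 bp for those in the resting and 96 h lists only.

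**Figure D4:**
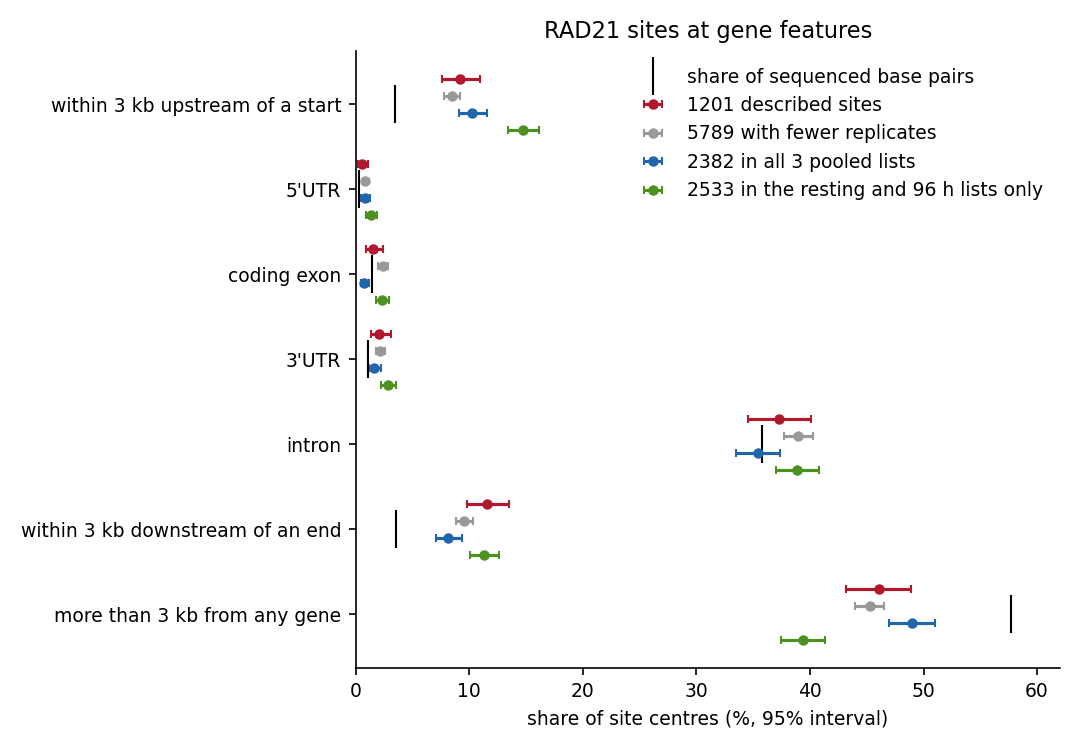
Share of site centres (%) in gene features of protein-coding transcripts, for the 1201 described sites (red), the 5789 sites unique to 96 h with fewer replicates (grey), the 2382 sites in all 3 pooled lists (blue) and the 2533 sites in the resting and 96 h lists only (green), with exact 95% binomial intervals. Black ticks mark the share of sequenced base pairs. The red points lie right of the ticks upstream of starts (9.16% against 3.43%) and downstream of ends (11.6% against 3.58%), and left of it far from genes.

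Among the 53 sites within 1 kb upstream of a start, those with the highest pooled scores were at Hoxc10, Ryr2 and Pdrg1. The site 199 bp upstream of Hoxc10, a homeobox gene of the posterior body axis (chr15:102796922-102797133), had a pooled score of 40.68 and scores of 13.05 and 16.32 in replicates 2 and 3 at 96 h. The site 65 bp upstream of Ryr2, the calcium release channel of heart muscle (chr13:12199162-12199392), had a pooled score of 40.65 and scores of 14.2 and 26.4 in the same replicates. Neither had a peak in replicate 1. The site 30 bp upstream of Pdrg1 (chr2:152841071-152841314) had a pooled score of 39.96, and 14.96 and 26.63 in replicates 1 and 3. None of the 3 had a peak in an earlier replicate.

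The nearest genes were many and nearly all different. A protein-coding start lay within 100 kb of 1100 sites, and 1058 genes were nearest to at least 1 of them, which is 4.76% of the 22219 protein-coding genes. Of these genes, 1019 were nearest to 1 site, 36 to 2 sites and 3 genes to 3 sites. These 3 were Tmem63b, which encodes a membrane channel protein, the cyclin-dependent kinase gene Cdk18, and Dab2ip, a regulator of Ras signalling. Upstream of Tmem63b the sites formed a run of 12947 bp between the outer centres (chr17:45855283-45868536), with pooled scores of 46.71, 18.8 and 55.96. The last of them had a peak with a score of 10.63 in resting replicate 3, and the middle one held no motif match. The tightest run of 3 sites spanned 8989 bp between Kcnj15, a potassium channel gene, and Erg, an ETS family transcription factor gene (chr16:95563106-95572390), with pooled scores of 19.37, 25.17 and 24.23. Each of its sites had peaks in 2 replicates at 96 h, and the nearest resting pooled peak was at least 594642 bp away.

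Across 13 lists of genes, 12 with roles in B cells and their stimulation and 1 of markers of T cells and myeloid cells, 21 of 347 genes, or 6.05%, were nearest to a described site within 100 kb, beside 4.76% of all protein-coding genes. The listed genes were more often nearest to RAD21 sites of any kind, with 59.9% against 39.3% of all protein-coding genes, and among the genes nearest to any site 10.1% of the listed and 12.1% of all genes were nearest to a described site. No gene was hit among the 32 genes of class switch recombination and DNA break repair or the 19 genes of MHC class II and costimulation. One gene each was hit among 28 B cell transcription factors, 35 genes of the LPS receptor and NF-kB pathway, 40 of the cell cycle and DNA replication, 22 of survival and apoptosis, and 26 markers of T cells and myeloid cells. At the loci of Pax5 and Prdm1, which encode the transcription factors of B cell identity and of plasma cells, no described site lay within the gene or 100 kb of it. At Pax5 there were 5 RAD21 sites in that interval, of which 3 were unique to 96 h with fewer replicates and 1 was in all 3 lists. Prdm1 had 3 sites, of which 1 was unique to 96 h with fewer replicates.

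Of 30 genes of plasma cell differentiation and secretion, 21 were nearest to a RAD21 site of any kind. A described site was nearest to 4, or 13.3% beside 4.76% of all protein-coding genes, which were Tnfrsf17, Zbtb20, Creld2 and Tram2. The counts for single lists, here and below, are small and were not tested. The site 15927 bp upstream of Tnfrsf17, which encodes the plasma cell survival receptor BCMA (chr16:11297861-11298095), had a pooled score of 31.06 and scores of 14.35 and 14.43 in replicates 2 and 3 at 96 h. The site in intron 9 of Zbtb20, a zinc finger factor of plasma cells (chr16:43540264-43540539), had 26.75 in the pooled list and 11.89, 7.53 and 16.22 in the replicates. Of the sites given with values for these gene lists, it alone had a peak in all 3 replicates. The site nearest to Creld2, a stress-induced gene of the endoplasmic reticulum (chr15:88659235-88659434), had a pooled score of 21.56 and 8.39 and 6.95 in replicates 2 and 3. In the list of B cell transcription factors the site was 71780 bp upstream of Foxo1 (chr3:52000388-52000569), with 27.81 in the pooled list and 8.17 and 14.03 in replicates 1 and 3.

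Of 32 genes of B cell receptor and coreceptor signalling, 24 were nearest to a RAD21 site of any kind. A described site was nearest to 4, or 12.5% beside 4.76% of all protein-coding genes, among them Itpr1, Nfatc1 and Pik3r1. The strongest was in intron 38 of Itpr1, a calcium channel opened by inositol trisphosphate (chr6:108367585-108367892), with a pooled score of 47.83 and 22.16 and 23.27 in replicates 2 and 3. The site 21880 bp upstream of Nfatc1, a transcription factor activated by calcium, had 42.86 in the pooled list and 25.82 and 22.3 in replicates 2 and 3, and a resting pooled peak lay 5220 bp away. Neither site had a peak in replicate 1 or at an earlier time point.

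For the pathways of LPS and IL-4, the sites lay within 3 kb of a start. The site 1023 bp upstream of Traf3, an adaptor that restrains NF-kB signalling (chr12:112403448-112403667), had a pooled score of 23.58 and 11.34 and 6.95 in replicates 1 and 2. Among 19 genes of IL-4 receptor signalling, 12 were nearest to a RAD21 site of any kind. A described site was nearest to 2, or 10.5% beside 4.76% of all protein-coding genes. The site in intron 1 of Socs1, an inhibitor of cytokine receptor signalling (chr16:10785110-10785320), was 414 bp downstream of the start, with 21.3 in the pooled list and 8.51 and 15.08 in replicates 1 and 3. It lay 1230 bp from a resting pooled peak, the shortest such distance among the sites named here. The site 2836 bp upstream of Irs1, an adaptor of the IL-4 and insulin receptors (chr1:82290719-82290934), had 18.51 in the pooled list and 8.07 and 9.11 in replicates 2 and 3.

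Of 17 genes of cohesin, its loader and CTCF, 8 were nearest to a RAD21 site of any kind. A described site was nearest to 2, or 11.8% beside 4.76% of all protein-coding genes. The site 486 bp upstream of Smc3, a core subunit of the cohesin ring (chr19:53674310-53674490), had a pooled score of 15.25 and 9.32 and 8 in replicates 2 and 3. The site in intron 7 of Ctcfl, the testis paralogue of CTCF (chr2:172932973-172933226), had 22.11 in the pooled list and 5.95 and 13.48 in replicates 2 and 3. Scores at both were below the median of the described sites.

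In the lists on migration, metabolism and growth, the sites were mostly supported by replicates 2 and 3. Of 24 homing and adhesion genes, 18 were nearest to a RAD21 site of any kind. A described site was nearest to 2, or 8.33% beside 4.76% of all protein-coding genes. The site 3136 bp upstream of S1pr4, a receptor for sphingosine-1-phosphate, lay in the 3′UTR of Gna15 (chr10:80965461-80965714) and had 36.04 in the pooled list and 19.57 and 14.83 in replicates 2 and 3. That in intron 1 of Ccr7, the chemokine receptor that guides B cells to the T cell zone (chr11:99011274-99011530), had 19.26 in the pooled list and 7.21 and 9.55. Of 24 genes of glycolysis, growth and mTOR, 11 were nearest to a RAD21 site of any kind. A described site was nearest to 2, again 8.33% beside 4.76%. The site in intron 11 of Eno1, the glycolytic enolase (chr4:149622182-149622435), had 23.51 in the pooled list and 11.34 and 12.52, and the site 2996 bp upstream of Slc2a3, a glucose transporter (chr6:122754521-122754786), had 20.89 in the pooled list and 6.86 and 14.43. The site nearest to Mcm5, a subunit of the replicative helicase (chr8:77656452-77656741), had 20.89 in the pooled list and 13.33 and 9.11. Intron 1 of Bid, which promotes apoptosis, held the site (chr6:120865345-120865607) that was the weakest of these, with 12.62 in the pooled list and 4.99 and 10.19. The site 82407 bp upstream of Csf3r, the receptor for granulocyte colony-stimulating factor and a marker of myeloid cells (chr4:125619290-125619484), had 29.74 in the pooled list and 16.07 and 14.43. A RAD21 peak is no measure of expression, so these sites do not tell whether such cells were present.

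Finally, it was asked whether the other RAD21 peaks of the 96 h-stimulated B cells lay closer to the described sites than those of the earlier time points. Peaks that overlapped a described site were left out. The remaining peaks came from the same libraries that chose the sites, so the comparison is not independent of that choice. No conclusion is drawn from it. In resting replicates 1, 2 and 3, 7.82%, 8.89% and 8.19% of the other peaks lay within 50 kb of a described site. At 48 h the shares were 8.28%, 4.36% and 8.17%, and at 96 h they were 8.75%, 9.20% and 8.69%. Resting and 96 h values overlapped, whereas all 3 values at 96 h were above those at 48 h, of which replicate 2 was by far the lowest. Within 20 kb the values at 48 h and 96 h overlapped, with 4.21%, 1.60% and 3.66% at 48 h and 4.12%, 4.59% and 4.18% at 96 h. The mean was 8.88% ± 0.280 (SD, n = 3) at 96 h and 8.30% ± 0.543 (SD, n = 3) in resting cells, a difference of 0.578 percentage points that did not pass an exact two-sided permutation test (p = 0.3). The mean at 48 h was 6.94% ± 2.23 (SD, n = 3), a difference of 1.94 percentage points with an exact permutation p of 0.1, which is the smallest that 3 against 3 replicates can give. Without replicate 2 at 48 h this difference was 0.656 percentage points, with an exact permutation p of 0.1.

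**Figure D5:**
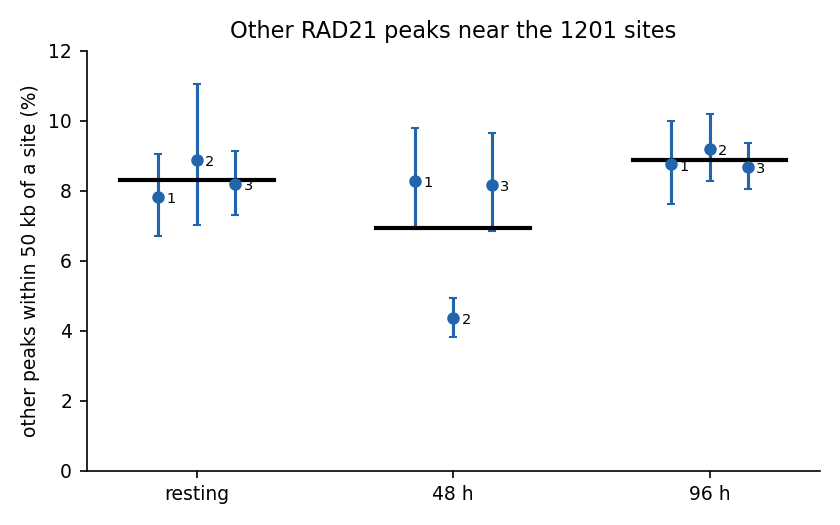
Share (%) of the other RAD21 peaks of each replicate that lie within 50 kb of a described site, by time point. Points are replicates with their number, error bars are exact 95% binomial intervals and horizontal lines are group means. The values lie between 7.82% and 9.20% except for replicate 2 at 48 h, at 4.36%.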

How the data were processed

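RAD21 ChIP-seq was analysed from 9 samples, 3 per time point, and 9 input samples entered only through the peak calling. According to the methods and the submitters' processing notes, the authors aligned reads with Bowtie2 to mm9, reduced each set of reads at random to the same number of unique positions, and called peaks with MACS against input, in each replicate and in merged replicates. The deposited score of each peak is the value of the authors' peak caller. Read counts per peak are not in the lists used here. The number of peaks, from 821 to 8579 per replicate, is no measure of depth, since the sets of reads had been made equal.

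Analyses used pysam 0.24.0, scipy 1.17.1 and numpy 2.4.6 in Python 3.11.15, with matplotlib 3.10.9 for plots. GENCODE release M1, on mm9, gave the gene features, from protein-coding transcripts only. The motif was learned on 10 chromosomes from the most enriched 8-base word, GCCCTCTA, by repeated realignment of the best match. The reference does not mark repeats, so tandem repeats and copies of the match were counted instead. Shares of neighbouring peaks were compared by exact two-sided permutation tests over the replicates, with a threshold of 0.05. The text names the 8 sites with the highest median score percentile in the replicates at 96 h, up to 3 genes per gene list by pooled score, the 3 strongest sites within 1 kb upstream of a start, any site at Pax5 or Prdm1, the 3 genes nearest to the most sites and the 2 tightest runs of 3 sites. Results for 2 further loci under this rule are not reported here. The sites, gene lists and tests were chosen with earlier results of these data known. The routines were tested on simulated lists and sequences.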

Additional observations from a re-analysis of the deposited data

How the results depend on the processing

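The number of sites, 1201, was 1467 with an overlap of 50% of both peaks, 1197 with peaks joined within 500 bp, 1013 with pooled lists of equal length, 1763 when weak pooled peaks were left out first, and 1103 when peaks in the earlier replicates were excluded as well. It fell to 349 with 96 h replicate lists of equal length and to 260 with support by all 3 replicates. With both remaining replicates required, it ranged from 296 without replicate 3 to 962 without replicate 1, with 463 without replicate 2. These counts follow from the support by replicates given above, and requiring both remaining replicates could only lower the number. The fall was largest without replicate 3, which had the longest list. Each of these sets contains the 260 sites supported by all 3 replicates, so their shares are not separate from those of the 260. Sites supported by all 3 replicates had 5.77% within 3 kb upstream of a start, 33.5% in introns, 50.4% more than 3 kb from a gene and 0.385% with a tandem repeat. Over the leave-one-out sets these shares ranged from 5.74% to 9.15%, 35.1% to 36.9%, 46.0% to 49.3% and 0.676% to 1.25%, where the lowest share upstream of starts, against 9.16% over all described sites, was that without replicate 3. With transcripts of all kinds, 13.3% lay within 3 kb upstream of a start, 41.5% more than 3 kb from a gene, and the median distance to a start was 11353 bp. The motif share was 60.5% at the stricter level, 91.3% within 50 bp and 87.2% within 200 bp of the centre, each with its own level. The convergent share was 16.8% at the stricter level and 21.8% with neighbours in all 3 lists, where the divergent share was 32.8%. Within 20 kb of a start, 3.75% of listed and 2.75% of all protein-coding genes were nearest to a site.

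The difference in nearby peaks kept its sign in every alternative, all of which used the libraries that chose the sites. With replicate number as a replicate block, exact permutation within pairs gave p = 0.25 for both differences, 0.578 and 1.94 percentage points, the smallest p that 3 pairs allow, and the labels do not say that a number marks shared mice or a shared day. With 1 replicate left out, the differences ranged from 0.340 to 0.874 against resting cells and from 0.656 to 2.61 against 48 h. With replicate lists of equal length they were 0.206 and 1.79. Within 20 kb they were 0.657 (exact permutation p = 0.1) and 1.14 (exact permutation p = 0.3), and within 200 kb 0.717 (p = 0.2) and 5.66 (p = 0.1). Peak lists without read counts limit what absence from a list means, and the smallest p of 0.1 lies above the threshold.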
